A study of Rattus norvegicus with 16 samples.

Results

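Bmal1, which the older nomenclature calls Arntl, and Clock encode the partners that form the positive limb of the circadian clock. They were taken from the count table by their Ensembl identifiers, ENSRNOG00000014448 for Bmal1 and ENSRNOG00000002175 for Clock, and not by a cut on any measured value. Earlier results of these data were known when both genes were chosen. They are 2 of the 32883 genes in the table, and both were among the 13685 genes that passed the filter on low counts. Their transcripts were measured by RNA-Seq in 16 libraries of fetal suprachiasmatic nuclei (SCN), the hypothalamic site of the central clock, from Wistar rats. The labels give the age as embryonic age 17, whereas the study's text places sampling later in gestation. In Group A the mothers had undergone SCN sham surgery and were fed ad libitum. In Group B the mothers carried an SCN lesion and had food for a restricted part of each day. The mothers of both groups were kept in constant darkness, so the groups differed in surgery and in feeding together. Each group had 1 library at each of 8 circadian times (CT), from CT0 to CT21 every 3 h, and each library pooled the SCN of fetuses from 1 mother. CT12 was the onset of activity in Group A and the start of food access in Group B, and CT12 to CT21 are called subjective night. Each library label gives 8 pooled SCN, while the protocol gives 8 for Group A and 5 to 10 for Group B.

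The BMAL1 and CLOCK proteins pair through their PAS domains and bind E-box elements in DNA as a transcription activator. Their targets include the Per and Cry genes, whose products shut the activator down, and the genes of the REV-ERB and ROR nuclear receptors, which act back on Bmal1 through ROR elements, REV-ERB as repressors and ROR as activators. In the adult SCN the Bmal1 transcript cycles over the day in antiphase to the Per transcripts, while the Clock transcript stays nearly constant.

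The promoters of the members are shown because this feedback acts on Bmal1 through ROR elements. They were copied from the RefSeq table of build GRCr8, whereas the reads had been mapped on the older build rn6. Each is the 250 bases before the transcript start that the table uses, on the plus strand, written from 5′ to 3′. The capitals mark the letters GTAGGTNA of the ROR element. The table holds 1 Bmal1 promoter, at chr1:176766078-176766327, and 2 Clock promoters, of which the first is at chr14:32262500-32262749 and the second at chr14:32300295-32300544. The gene models span chr1:176766222-176864741 for Bmal1 and chr14:32262747-32346872 for Clock, so these windows reach into the gene models. The last 106 bases of the Bmal1 window, both of its ROR elements included, lie inside the Bmal1 gene model, as do the last 3 bases of the first Clock window and all of the second.
Bmal1: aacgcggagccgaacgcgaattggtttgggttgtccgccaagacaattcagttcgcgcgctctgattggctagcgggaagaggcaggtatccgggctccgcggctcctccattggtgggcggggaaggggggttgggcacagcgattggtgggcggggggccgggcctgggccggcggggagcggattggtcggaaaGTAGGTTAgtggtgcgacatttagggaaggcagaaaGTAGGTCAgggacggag
Clock, first: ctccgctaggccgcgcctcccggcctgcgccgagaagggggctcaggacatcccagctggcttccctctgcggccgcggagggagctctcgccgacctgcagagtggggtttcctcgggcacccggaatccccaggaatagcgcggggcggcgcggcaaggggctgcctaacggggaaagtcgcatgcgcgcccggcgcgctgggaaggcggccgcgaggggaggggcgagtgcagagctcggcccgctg
Clock, second: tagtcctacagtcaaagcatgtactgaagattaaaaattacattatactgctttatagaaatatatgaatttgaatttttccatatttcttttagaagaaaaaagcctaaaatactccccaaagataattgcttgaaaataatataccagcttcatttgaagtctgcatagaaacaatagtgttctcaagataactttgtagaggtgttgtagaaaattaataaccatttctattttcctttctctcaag

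The Bmal1 promoter held the ROR element letters at 2 places, GTAGGTTA from 53 to 46 bases before the start and GTAGGTCA from 17 to 10 bases before it, counted to the start used by the promoter table. Of 33469 rat promoters of this length searched on both strands, 1.69% held the letters at least once, and 0.0448% (15 promoters) held at least 2 matches. The letters are a narrow form of the element, and the 2 Bmal1 matches differ only at its open base N. Other forms were not searched, so these shares tell how common the letters are and are no test of Bmal1. The nuclear receptor half-site AGGTCA occurred once, inside the second of those elements, and 14.1% of promoters held it. Neither Clock window contained the letters GTAGGTNA or the half-site. None of the 3 windows contained the E-box CACGTG (5.59% of promoters), its variant CACGTT (4.07%), the D-box TTATGNAA (3.28%) or the cAMP response element TGACGTCA (1.59%). The Bmal1 window had a G and C content of 64%, and 23 CpG dinucleotides. The first Clock window had 74.4% and 31 CpG, the second Clock window had 28% and 0 CpG, and the median over all promoters was 51.2%. The CCAAT box occurred 5 times in the Bmal1 window, each on the minus strand, and in neither Clock window. Among all promoters 34.0% held it at least once and 9.42% held at least 2 matches. The GC box GGGCGG occurred 2 times in the Bmal1 window and once in the first Clock window, with 30.5% of promoters holding it at least once and 14.8% holding at least 2 matches. These matches describe letters in a window and were not set against binding data.

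The Group A libraries totalled 10746066 to 12781966 counts and those of Group B 10047500 to 18738585, where the CT9 library was the deepest. Values below are CPM (reads of a gene relative to all reads of its library) with library sizes scaled by trimmed mean of M values (TMM). Intervals given for 1 library are exact 95% Poisson intervals and cover counting error only. Because each time had 1 litter per group, the circadian time and the litter cannot be told apart. The study's text has the sampled times span a range of fetal ages, so age may vary with circadian time as well. The tests over all genes took the spread between libraries that their model left as the error. In the comparison of groups this error includes any change over time. A lower level in pooled tissue could come from fewer cells of a type or from less RNA per cell, which cannot be told apart in bulk RNA. No relation of either level with the log2 library total or the first principal component of all genes passed its test over the 16 libraries. In these 4 relations r was -0.03 to 0.26 and rho was 0 to 0.35, with adjusted permutation p of at least 0.871 and 0.725, and r was -0.21 to 0.21 without the 2 farthest libraries.

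Bmal1 was readily detected in every library, with 506 to 1065 counts. Its level varied less over the day than the median over genes, which were not matched on level. In Group A the Bmal1 level was 46.0 CPM at CT0, 60.7 at CT3, 55.1 at CT6, 53.2 at CT9, 52.1 at CT12, 58.8 at CT15, 60.3 at CT18 and 60.0 at CT21. In Group B it was 50.4 CPM at CT0, 57.0 at CT3, 53.5 at CT6, 57.2 at CT9, 58.7 at CT12, 51.7 at CT15, 59.1 at CT18 and 56.6 at CT21. The lowest library of each group was the one from CT0, and the range of Group B lay within that of Group A. The mean was 55.8 ± 5.17 CPM (SD, n = 8) in Group A and 55.5 ± 3.26 CPM (SD, n = 8) in Group B. The highest Bmal1 library exceeded the lowest 1.32-fold in Group A and 1.17-fold in Group B. Among the genes tested, 28.0% had a higher mean CPM than Bmal1.

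Clock was also present in every library, with 767 to 1524 counts. In Group A the Clock level was 68.5 CPM at CT0, 73.7 at CT3, 73.3 at CT6, 80.5 at CT9, 77.8 at CT12, 79.4 at CT15, 74.4 at CT18 and 81.6 at CT21. In Group B it was 76.3 CPM at CT0, 74.4 at CT3, 71.4 at CT6, 81.9 at CT9, 79.8 at CT12, 75.1 at CT15, 84.6 at CT18 and 92.4 at CT21. CT21 gave the highest Clock level in each group, and the Group B library at CT21 stood highest of all 16, with a counting interval of 86.7 to 98.4 CPM. A highest level at CT21 in both groups was shared by 1.38% of genes, a share for 1 time that was singled out after the values were seen. The mean was 76.2 ± 4.43 CPM (SD, n = 8) in Group A and 79.5 ± 6.73 CPM (SD, n = 8) in Group B. The highest Clock library exceeded the lowest 1.19-fold in Group A and 1.29-fold in Group B. A higher mean CPM than that of Clock was found in 20.7% of the genes tested. CPM is not divided by transcript length, so the level of Bmal1 was not compared with that of Clock.

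**Figure D1:**
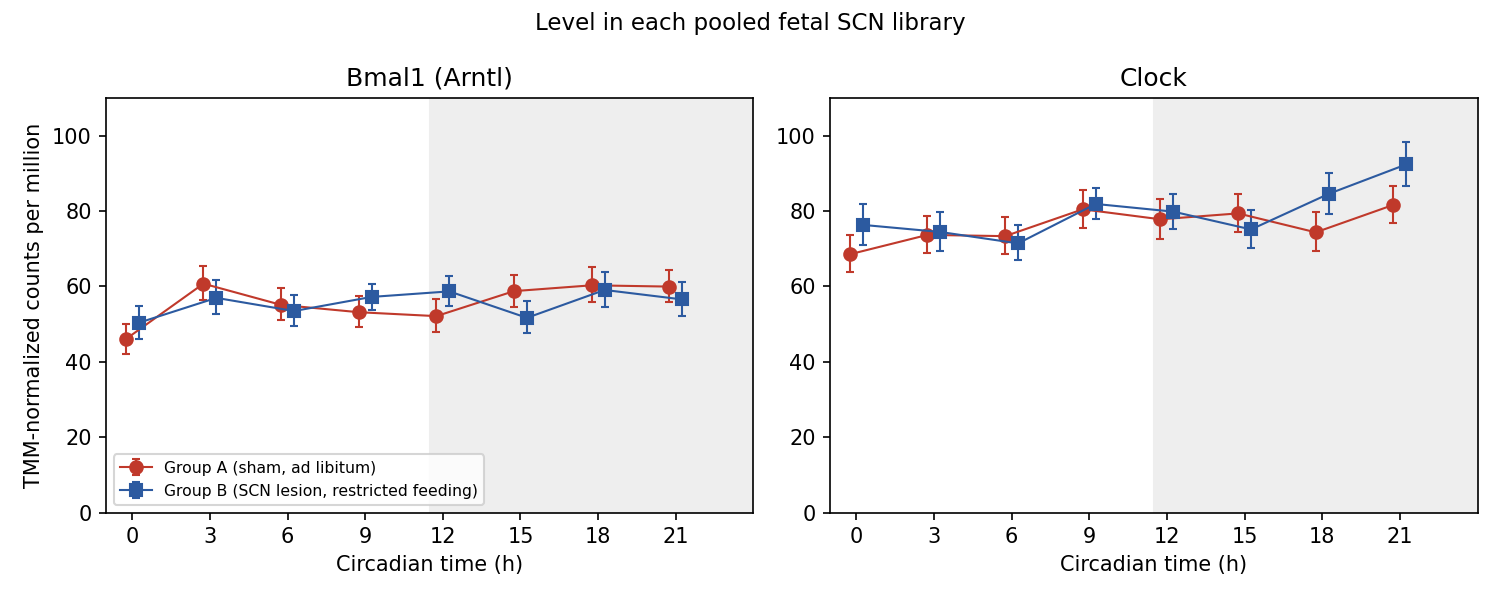
TMM-normalized CPM (y axis, from 0) of Bmal1 (left) and Clock (right) against circadian time in hours (x axis) in Group A (red circles) and Group B (blue squares), 1 library per point. Bars are exact 95% Poisson counting intervals, points are shifted sideways for legibility, and grey marks subjective night. Bmal1 lay between 46.0 and 60.7 CPM and Clock between 68.5 and 92.4 CPM, and the groups overlapped for both genes.

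The spread of both transcripts over the day was below the median over genes, which were not matched on level. The SD of the log2 level within groups was 0.12 for Bmal1 (0.14 in Group A, 0.09 in Group B) and 0.10 for Clock (0.08 in Group A, 0.12 in Group B). The median over 13655 genes with counts in every library was 0.16, and 69.8% of those genes had a larger SD than Bmal1 and 76.2% a larger SD than Clock. These SDs, the median included, still hold counting error, which is larger on this scale at lower counts. Counting error alone would give an SD of 0.06 for Bmal1 and 0.05 for Clock on this scale. After it was removed, 0.10 remained for Bmal1 and 0.09 for Clock, which includes any change over time, differences between litters and library preparation. The biological coefficient of variation in edgeR was 7.77% for Bmal1 and 7.22% for Clock, with a median of 10.7% over all genes.

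The comparison of groups asked whether the loss of the maternal SCN, together with restricted feeding, went with another level of the positive limb in the fetal SCN. Neither gene passed this test. Bmal1 was higher in Group B at 3 of 8 times, and the ratio of Group B to Group A at the same time lay between 0.879 at CT15 and 1.13 at CT12. Clock was higher in Group B at 6 of 8 times, with ratios from 0.946 at CT15 to 1.14 at CT18. In edgeR the log2 difference of Group B minus Group A was -0.01 (SE 0.056, adjusted p = 0.993) for Bmal1 and 0.06 (SE 0.051, adjusted p = 0.915) for Clock. From a linear fit to log2 CPM, the ratio of Group B to Group A was 0.998 for Bmal1 with a 95% interval of 0.915 to 1.09, and 1.04 for Clock with an interval of 0.965 to 1.13. The sign of the Bmal1 difference turned when any 1 of 6 libraries was left out, and the Clock difference was 0.03 without the Group B library at CT21 and 0.04 without the Group A library at CT0. The test called 0 of 13685 genes (0%) at an adjusted p under 0.05, as did DESeq2 and limma-voom. At an unadjusted p under 0.05 it gave 795 genes (5.81%) and 0 of the 2 members.

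The time course asked whether either transcript followed a 24 h rhythm shared by the groups. Neither Bmal1 nor Clock was called rhythmic. When the levels of both groups were averaged at each time, Bmal1 fell in the order CT18 (59.7 CPM), CT3 (58.9), CT21 (58.3), CT12 (55.4), CT15 (55.2), CT9 (55.2), CT6 (54.3) and CT0 (48.2). The median gap between the groups at the same time was 3.91 CPM, and 6 of the 7 steps between neighbours in this order were smaller than it. Only the step from CT6 to CT0, of 6.11 CPM, was larger. For Clock the order was CT21 (87.0 CPM), CT9 (81.2), CT18 (79.5), CT12 (78.8), CT15 (77.3), CT3 (74.1), CT0 (72.4) and CT6 (72.4). The median gap between groups was 3.14 CPM for Clock, and 5 of its 7 steps were smaller. The steps from CT21 to CT9 (5.83 CPM) and from CT15 to CT3 (3.19 CPM) were larger.

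A 24 h cosine common to both groups had a peak-to-trough ratio of 1.05 for Bmal1, with the fitted peak at CT16.1 (edgeR, adjusted p = 0.901). For Clock the ratio was 1.10 with the fitted peak at CT16.6 (edgeR, adjusted p = 0.637). The joint 95% region of the 2 cosine coefficients, from a linear fit to log2 CPM, reached a ratio of 1.24 for Bmal1 and 1.25 for Clock and included no rhythm at all, a ratio of 1. A larger fitted peak-to-trough ratio was found in 83.2% of all genes tested for Bmal1 and in 59.1% for Clock. At an adjusted p under 0.05 this test called 47 genes (0.343%) and 0 of the 2 members. At an unadjusted p under 0.05 it gave 1638 genes (12.0%) and again 0 of the 2 members.

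The cosine in Group A had a peak-to-trough ratio of 1.08 for Bmal1 (adjusted p = 0.926) and 1.10 for Clock (adjusted p = 0.865). In Group B the ratio was 1.05 for Bmal1 (adjusted p = 0.952) and 1.14 for Clock (adjusted p = 0.622). With fewer libraries behind each estimate, the 95% regions reached further, to 1.40 for Bmal1 and 1.33 for Clock in Group A, and to 1.36 and 1.39 in Group B. All of these regions included no rhythm. With 1 library left out, the log2 peak-to-trough difference in Group A ran from 0.06 to 0.23 for Bmal1 (highest without CT0, and 0.23 without CT3) and from 0.08 (without CT0) to 0.20 (without CT21) for Clock. In Group B it ran from 0.02 (without CT0) to 0.16 (without CT15) for Bmal1 and from 0.12 (without CT21) to 0.29 (without CT9) for Clock, and the adjusted p in edgeR was at least 0.434 in all of these fits. The unadjusted p of Clock in Group B was under 0.05 in 2 of them, at 0.0451 without CT9 and 0.0464 without CT15 in edgeR. The test called 1 gene (0.00731%) in Group A and 13 genes (0.0950%) in Group B, and 0 of the 2 members in each. The difference between the cosines of both groups had an adjusted p of 0.964 for Bmal1 and 0.891 for Clock in edgeR. That test called 0 genes (0%), against 4 by DESeq2 and 0 by limma-voom, and 836 genes (6.11%) at an unadjusted p under 0.05, 0 of the 2 members among them.

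Model selection weighed 5 models of rhythm by Bayesian information criterion (BIC) weights, which sum to 1 for a gene. For Bmal1 the model with no rhythm in either group had a weight of 0.796, against 0.0728 for a rhythm in Group A only, 0.0576 for Group B only, 0.0686 for a common rhythm and 0.00527 for separate rhythms. For Clock it had 0.568, against 0.0751 for Group A only, 0.173 for Group B only, 0.161 for a common rhythm and 0.0229 for separate rhythms. Both members were thus above a weight of 0.5 for no rhythm, as were 9468 genes (69.2%). The BIC penalty on extra terms caps this weight for every gene, and the highest of any gene was 0.839. A higher weight than that of Bmal1 was found in 10.6% of genes. Clock lay below the median of 0.648, with a higher weight in 62.0% of genes. The weight of Clock was 0.378 without the Group B library at CT9 and 0.325 without that at CT15, below the threshold. In the latter case a rhythm in Group B only had the highest weight, 0.328. The weight of no rhythm for Bmal1 was at least 0.634 whichever library was left out.

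Subjective night was then set against subjective day, and neither gene passed the test after adjustment. The Clock libraries of subjective day held 68.5 to 81.9 CPM with a median of 74.1, and those of subjective night 74.4 to 92.4 CPM with a median of 79.6. These ranges overlapped, and the mean was 75.0 ± 4.45 CPM by day and 80.6 ± 5.79 CPM by night (SD, n = 8 each). The log2 difference of night minus day was 0.10 for Clock (SE 0.047), with an unadjusted p of 0.0416 and an adjusted p of 0.385 in edgeR. The linear fit gave a night to day ratio of 1.07, with a 95% interval from just above 1 to 1.15. The unadjusted p of Clock in edgeR was above 0.05 in 9 of the 16 fits that each left out 1 library. The highest of these was 0.111, without the Group B library at CT21. Of 9 other settings, 4 also gave an unadjusted p above 0.05. It was 0.0511 in limma-voom. In edgeR it was 0.0702 after thinning to the smallest total and 0.0504 with the first principal component as covariate. With CT0 of both groups left out, chosen after the data were seen, it was 0.112 in edgeR. Among all genes 1642 (12.0%) had an unadjusted p under 0.05, Clock among them, and 10.8% had a lower p than Clock. At an adjusted p under 0.05 the test called 52 genes (0.380%) and 0 of the 2 members.

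The Bmal1 libraries of subjective day held 46.0 to 60.7 CPM with a median of 54.3, and those of subjective night 51.7 to 60.3 CPM with a median of 58.7. Night thus lay within the range of day, and the mean was 54.1 ± 4.53 CPM by day and 57.1 ± 3.42 CPM by night (SD, n = 8 each). The log2 difference for Bmal1 was 0.08 (SE 0.055, adjusted p = 0.634 in edgeR), and the night to day ratio of 1.06 had a 95% interval of 0.969 to 1.15. It was 0.03 on the log2 scale when the CT0 libraries of both groups were left out, a choice made after the data were seen.

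Within Group A the mean level of Bmal1 was 53.8 ± 6.08 CPM by day and 57.8 ± 3.83 CPM by night, and in Group B 54.5 ± 3.25 and 56.5 ± 3.40 CPM (SD, n = 4 each). The mean level of Clock was 74.0 ± 4.91 CPM by day and 78.3 ± 3.06 CPM by night in Group A, and 76.0 ± 4.40 and 83.0 ± 7.36 CPM in Group B (SD, n = 4 each). All 4 means were higher by night, with day and night libraries overlapping in every case. The night to day ratio in Group B relative to that in Group A was 0.961 for Bmal1, with a 95% interval of 0.808 to 1.14, and 1.03 for Clock, with an interval of 0.893 to 1.19. The adjusted p of this difference was 0.997 for each gene in edgeR. Its sign turned for Bmal1 without the Group A library at CT0 and for Clock without the Group B library at CT21. The test called 0 genes (0%), against 1 by DESeq2 and 0 by limma-voom, and 569 genes (4.16%) at an unadjusted p under 0.05, 0 of the 2 members among them.

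**Figure D2:**
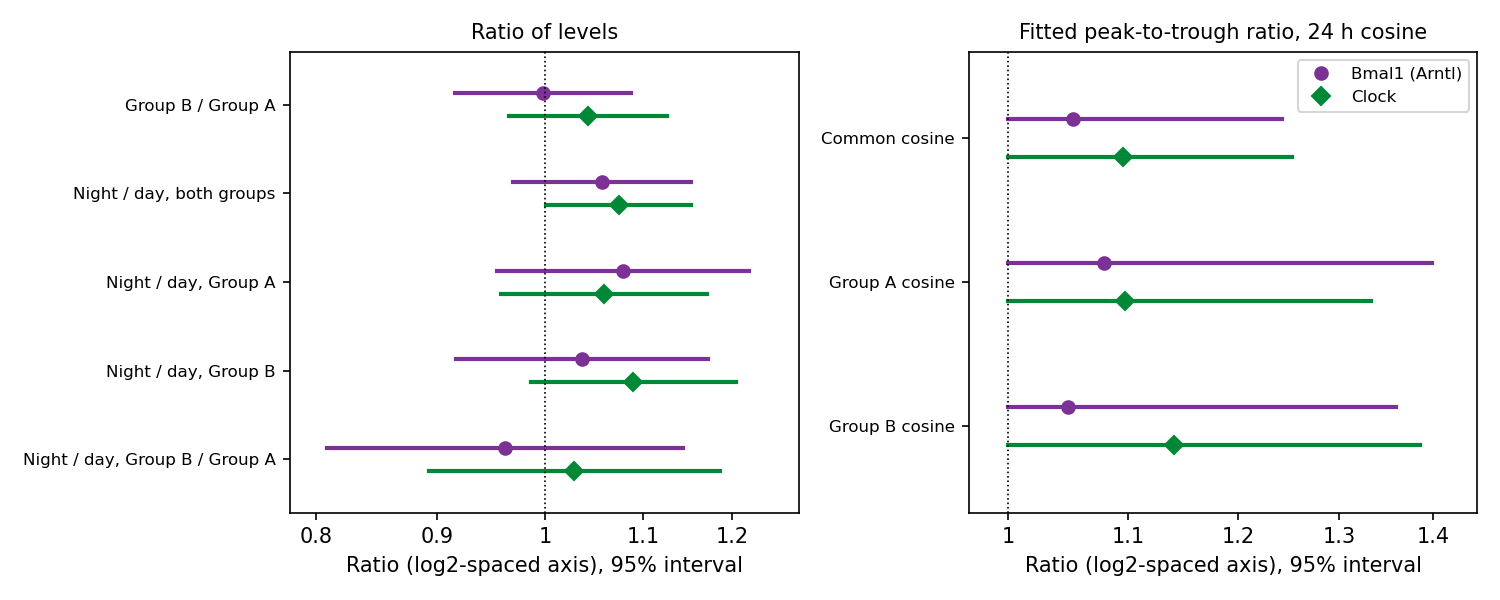
Ratios (x axis, log2-spaced) of Bmal1 (purple circles) and Clock (green diamonds) levels between groups and between subjective night and day (left, 95% intervals) and fitted peak-to-trough ratios of a 24 h cosine (right, joint 95% regions), from linear fits to log2 CPM of 16 libraries. The dotted line is a ratio of 1, which each interval on the left spans except that of Clock between night and day in both groups, which starts just above 1.

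The CT0 libraries were the lowest for Bmal1 in both groups, at 0.805 times the mean of the other 7 libraries in Group A and 0.895 times in Group B. In Group A the CT0 library had a counting interval of 42.2 to 50.1 CPM, and the next lowest, at CT12, one of 47.9 to 56.6 CPM, so the intervals overlapped. The gap between them was 0.415 of the range of the group, under the limit of 0.526 at which Dixon's test would set the lowest of 8 libraries apart. In Group B it lay close to CT15, at 50.4 against 51.7 CPM. For Clock the CT0 library was also the lowest of Group A, at 0.887 times the mean of the others, but in Group B it was at 0.955 times and above the levels at CT3, CT6 and CT15. On library totals without TMM scaling, the Bmal1 ratios were 0.786 in Group A and 0.895 in Group B. Of the 13655 genes, 2.26% had their lowest library at CT0 in both groups, and 6.40% had in each group a drop at CT0 at least as large as the smaller of the Bmal1 drops on the log2 scale. CT0 was singled out after the values were seen, and its difference from the other times was not tested beyond this gap.

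The profile of Bmal1 over the 8 times in Group A correlated with that in Group B at r = 0.461 (two-sided exact permutation p = 0.253) and rho = 0.310 (exact permutation p = 0.462), over 8 times. Without the 2 times farthest from the median r was 0.191, and without CT0 alone it was -0.11, so the likeness of the Bmal1 profiles rested on CT0. For Clock r was 0.552 (exact permutation p = 0.158) and rho was 0.643 (exact permutation p = 0.0962), with r = 0.355 without the 2 farthest times. Adjusted over both genes, the exact permutation p of r was 0.253 for each. Across 13655 genes the median r between the groups was 0.06, and 15.8% of genes had a higher r than Bmal1 and 10.1% a higher r than Clock.

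The products of Bmal1 and Clock act as a pair, so their levels were set against each other library by library. Over the 16 libraries r was 0.436 (permutation p = 0.0946) and rho was 0.265 (permutation p = 0.322), and without the 2 libraries farthest from the median Bmal1 level r was 0.179. Within Group A r was 0.480 (exact permutation p = 0.237) and rho 0.190 (exact permutation p = 0.665). Within Group B r was 0.523 (exact permutation p = 0.184) and rho 0.476 (exact permutation p = 0.243). Leaving out the 2 farthest libraries gave r = -0.18 in the first and r = 0.503 in the second of these groups. The adjusted permutation p over these 3 relations was 0.237 for each r. No relation between the transcripts passed the test, and the positive r in Group A rested on its most extreme libraries, CT0 among them.

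**Figure D3:**
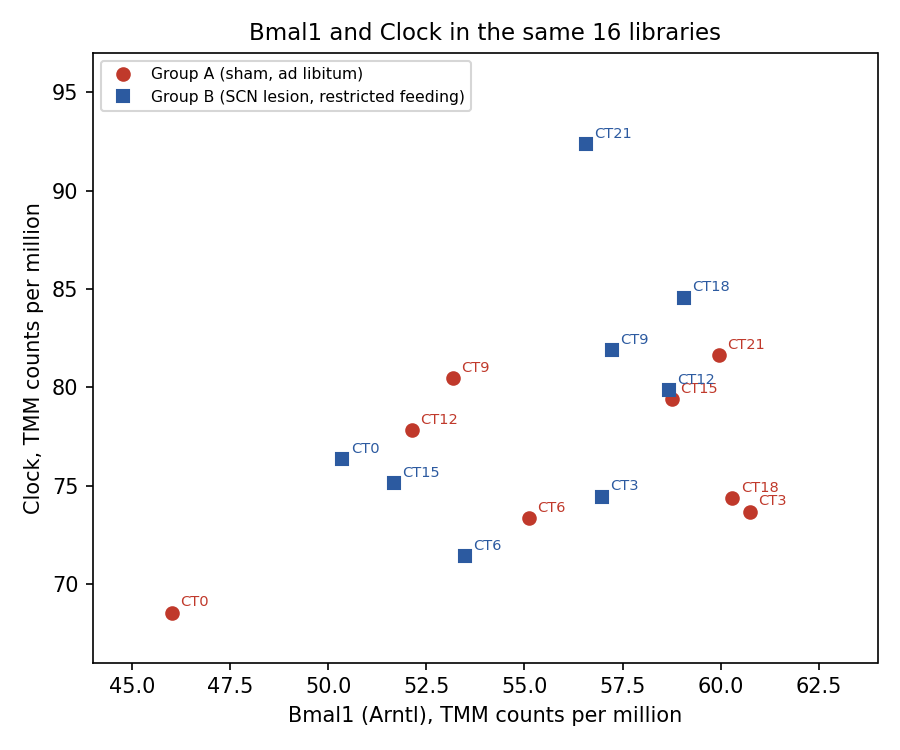
Clock against Bmal1 in the same library, both in TMM-normalized CPM, for Group A (red circles) and Group B (blue squares), with the circadian time beside each point. The axes do not start at 0. The Group A library at CT0 is lowest on both axes and the Group B library at CT21 is highest for Clock, with r = 0.436 over the 16 libraries.

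The ratio of Bmal1 to Clock counts within a library does not depend on its depth or scaling. It was 0.661 (CT9) to 0.824 (CT3) in Group A with a median of 0.737, and 0.612 (CT21) to 0.765 (CT3) in Group B with a median of 0.699. CT3 gave the highest ratio in each group, the ranges of the groups overlapped, and the ratio was lower in Group B at 6 of 8 times. The log2 ratio differed by -0.06 between Group B and Group A (two-sided exact permutation p = 0.285). This is a ratio 0.957 times as high in Group B, with a 95% interval of 0.879 to 1.04. The pooled SD of the log2 ratio was 0.11, and counting error alone would give an SD of 0.07. By subjective day the ratio was 0.660 to 0.824 with a median of 0.724, and by night 0.612 to 0.811 with a median of 0.716.

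**Figure D4:**
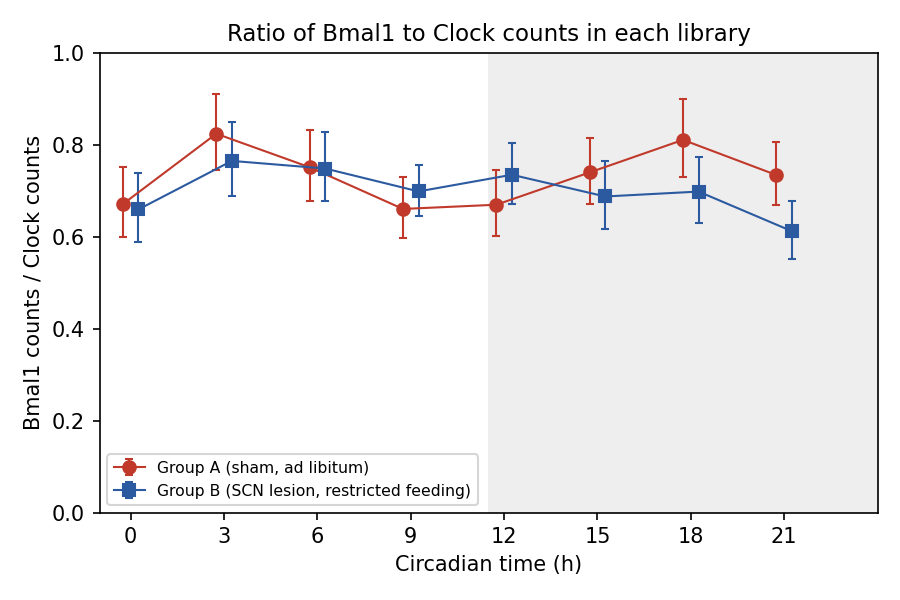
Bmal1 counts divided by Clock counts (y axis, from 0) in each library against circadian time in hours (x axis), for Group A (red circles) and Group B (blue squares). Bars are 95% counting intervals and grey marks subjective night. The ratio lay between 0.612 and 0.824, with both groups highest at CT3.

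The genes whose levels followed the members most closely were ranked over the 16 libraries after each group's mean was subtracted, among 9489 genes with a mean of at least 10 CPM. They were chosen for this likeness and carry no test, and all genes of a library share its depth and its litter. The gene most like Bmal1 was ENSRNOG00000016372, with r = 0.909 over all libraries, 0.989 in Group A and 0.671 in Group B. The next was ENSRNOG00000019587, with r = 0.893. The gene most like Clock was ENSRNOG00000002075, with r = 0.875 over all libraries, 0.863 in Group A and 0.883 in Group B, followed by ENSRNOG00000056753 with r = 0.864. No gene name is paired with these identifiers in the tables used here. Clock ranked 462 in likeness to Bmal1 with r = 0.461, and 4.86% of genes were more like it. Bmal1 ranked 671 in likeness to Clock, and 7.06% of genes were more like it.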

How the data were processed

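The authors pooled fetal SCN of 1 litter per library, depleted rRNA, enriched polyA RNA and prepared stranded single-end libraries. Reads were mapped with HISAT2 version 2.1.0 on rn6 (Rnor_6.0), and the submitters' processing notes also name Salmon and StringTie. The deposited values are raw counts per Ensembl gene, not normalized, in 1 table of 32883 genes. Group and circadian time came from the labels.

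The filter asked for 1.5 CPM or more in 3 or more libraries and left 13685 genes, which were scaled by TMM and tested with quasi-likelihood F tests in edgeR 4.0.16 (R 4.3.3), with Benjamini-Hochberg adjustment over all of them and a threshold of 0.05. The tests were Group B minus Group A, a 24 h cosine (common to the groups, in each group, and its difference) and subjective night minus day (with its difference between groups). Group B minus Group A had no other term. The 5 rhythm models were weighed by BIC on negative binomial fits. Intervals came from linear fits to log2 CPM, and correlations were tested by permutation, exact with 8 values and 100000 resamples with 16, in scipy 1.17.1. DESeq2 1.42.0 and limma-voom (limma 3.58.1) were alternatives. The scripts were tested on simulated data. No 2 libraries had identical counts. Both members, the lists and the tests were chosen with earlier results of these data known. The genes named were both members and the 5 most like each, of which the first 2 are printed. Planned lists of clock genes and cell type markers were not used here, because no table pairs their symbols with the identifiers, so the tissue label was not checked against markers.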

Additional observations from a re-analysis of the deposited data

How the results depend on the processing

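The tests over all genes gave 358 alternative results, each for 1 gene, 1 test and 1 setting. Each gene and test had 25 to 27 alternative settings. These included other normalizations, filters, tools and covariates, thinning, and a block for circadian time. Others left out each library in turn, or CT0 of both groups, the last chosen after the data were seen. Bmal1 or Clock passed an adjusted p of 0.05 in 0 of the 358 results. The lowest adjusted p was 0.244, for Clock between night and day in edgeR with 1 library left out. The cause of the changes below was not tested. The Bmal1 log2 difference of Group B minus Group A turned positive without the Group A library at CT3 (0.0117), CT15 (0.00378), CT18 (0.0100) or CT21 (0.00810) and without the Group B library at CT0 (0.0112) or CT15 (0.00643), within a range of -0.0421 to 0.0117 (adjusted p 0.940 to 0.999). The difference in the night effect turned to -0.0117 for Clock without the Group B library at CT21 (range -0.0117 to 0.0888) and to 0.0135 for Bmal1 without the Group A library at CT0 (range -0.117 to 0.0135). The BIC weight of no rhythm for Clock was 0.422 with Gaussian fits to log2 CPM or to CPM, and 0.325 to 0.697 with 1 library left out. The correlation of the Bmal1 profiles was -0.107 without CT0 and 0.669 at most (exact permutation p 0.798 and 0.103). The correlation of Bmal1 with Clock was 0.207 to 0.531, with the highest, without the Group A library at CT3, at a permutation p of 0.0421.

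With circadian time as a replicate block, the log2 difference between groups was -0.00369 for Bmal1 (adjusted p = 0.994, edgeR) and 0.0596 for Clock (adjusted p = 0.847, edgeR), and no call changed. Counts of genes called over the whole table depended more on the setting. With 1 library left out the common cosine gave 1 gene (without CT3 or CT18 of Group A) to 92 genes (without CT15 of Group A), over 1.5 times from the 47 genes in 12 of 16 fits. Night against day gave 2 genes (without CT18 of Group B) to 104 genes (without CT9 of Group B), over 1.5 times from the 52 genes in 11 of 16 fits. For the Group A cosine 0 to 3 genes were called, and for the Group B cosine 1 to 24. Without CT0 of both groups these counts were 7, 2, 1 and 4. DESeq2 called 298 genes for the common cosine (47 in edgeR), 28 for Group A (1), 133 for Group B (13) and 211 between night and day (52). With the first principal component as covariate the common cosine gave 135 genes, Group B fitted alone gave 5, and without a filter night and day gave 118. In Group A 3 genes were called without a filter, and for the difference in the night effect 2.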
